A study of Mus musculus with 6 samples.

Results

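The plasma cell program and the genes that place and feed IgA plasma cells are described here through 10 genes, compared between treated skin of IL-33 KO and WT mice: 6 of the program (Mzb1, Pou2af1, Tnfrsf17, Derl3, Xbp1 and Prdm1) and 4 of IgA transport, mucosal homing and survival (Pigr, Ccl28, Ccr10 and Tnfsf13b). They were chosen by symbol, with earlier results of these data known. Each matched 1 entry of the 35275 genes listed, and 9 of the 10 had enough counts to be tested. Plasma cells are the end stage of the B cell lineage and secrete antibody. The transcription factor PRDM1 (Blimp-1) shuts down the B cell program, XBP1 enlarges the secretory apparatus of the endoplasmic reticulum, and the receptor TNFRSF17 (BCMA) receives survival signals from the TNF family ligands BAFF and APRIL. At mucosal surfaces, IgA plasma cells that carry the chemokine receptor CCR10 are drawn in by epithelial CCL28, and the polymeric immunoglobulin receptor PIGR carries their IgA across the epithelium. Skin uses CCR10 too, with CCL27 as the ligand made by keratinocytes.

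RNA-seq libraries were made from the epithelial region of back skin of C57BL/6 mice, 3 for the IL-33 KO genotype and 3 for WT. IL-33 is an epithelial alarm cytokine of the IL-1 family. Both genotypes had received the contact allergen DNFB (dinitrofluorobenzene) on the back, at 0.25% in a mix of acetone and olive oil, 3 times a week for 22 days, so every library holds treated skin. How the KO allele was made, the age and sex of the mice and whether each library is 1 animal are not given in the sources used here, and p-values therefore measure the spread between these libraries, which may be technical. The libraries held 20459574 to 24359612 counts. Il33 had 11 to 22 counts in the IL-33 KO libraries against 2817 to 3906 in WT. Keratinocyte genes were abundant in all libraries (Krt5, a keratin of basal keratinocytes, at 7789 to 11988 CPM), but the epithelial region also held RNA of hair follicle, fat and, in IL-33 KO 1 and 3, skeletal muscle. Values of the libraries are given in the order of replicates 1, 2 and 3, and CPM are counts relative to the library size after TMM scaling. In edgeR's quasi-likelihood test, 3 of 15720 genes passed an adjusted p of 0.05.

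The data show a division within the 10 genes. Mzb1, Pou2af1 and Tnfrsf17, known mainly from the B lineage, had higher values in every IL-33 KO library than in any WT library, with ratios of mean CPM of 11.4, 4.30 and 9.68, and so did the niche genes Ccl28, Ccr10 and, narrowly, Tnfsf13b. Xbp1, Prdm1 and Derl3, which complete the program, had no such pattern: Prdm1 and Derl3 overlapped between the genotypes, and Xbp1 had lower values in all IL-33 KO libraries. None of the 9 tested genes passed an adjusted p of 0.05 in edgeR, where 0.0191% of all tested genes passed (0.0127% as higher and 0.00636% as lower). At an unadjusted p under 0.05 there were 4, all higher (Mzb1, Pou2af1, Ccl28 and Ccr10), against a background of 4.87% of all tested genes in that direction, 4.15% in the other and 9.02% in either. In DESeq2 2 of them passed, Mzb1 and Pou2af1, where 1.01% of all genes passed as higher. Of the 9 tested genes 5 lay higher and 1 lower in every IL-33 KO library than in every WT library, against 7.46% and 6.47% of all tested genes. Mzb1 and Ccl28 reached the count minimum of the filter in the IL-33 KO libraries alone, so they entered the test through the genotype in which they were high. The 10 genes were also chosen with earlier results of these data known. For both reasons the counts of genes set against the background are a description. In bulk tissue, fewer cells of a type and less RNA per cell cannot be told apart.

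The sequences just before the start of 3 of these genes are shown because they carry letters to which factors of the same program are known to bind. RefSeq windows (GRCm38.p6) were found for 8 of the 10 genes, in 9 windows, and the 250 bases before each start were searched on both strands for 5 motifs. Capitals mark the match. Pou2af1 (chr9:51213440-51213689, plus strand) holds TGACGTGG, the form of the unfolded protein response element that XBP1 binds, 61 to 54 bases before its start. Derl3 (chr10:75893148-75893397, plus strand) holds on the opposite strand the spaced endoplasmic reticulum stress response element, 156 to 138 bases before its start. Tnfrsf17 (chr16:11313559-11313808, plus strand) holds on the opposite strand the core of the interferon response elements bound by IRF factors, 101 to 92 bases before its start.
Pou2af1: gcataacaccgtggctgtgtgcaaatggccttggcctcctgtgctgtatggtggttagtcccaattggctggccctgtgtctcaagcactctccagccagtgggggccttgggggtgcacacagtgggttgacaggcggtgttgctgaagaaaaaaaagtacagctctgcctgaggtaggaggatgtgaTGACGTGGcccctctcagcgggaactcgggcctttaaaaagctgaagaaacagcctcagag
Derl3: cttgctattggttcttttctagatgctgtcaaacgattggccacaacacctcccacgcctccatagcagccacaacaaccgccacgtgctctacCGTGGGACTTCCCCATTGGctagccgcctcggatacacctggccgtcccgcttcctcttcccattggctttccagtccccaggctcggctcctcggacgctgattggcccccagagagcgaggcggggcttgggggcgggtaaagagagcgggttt
Tnfrsf17: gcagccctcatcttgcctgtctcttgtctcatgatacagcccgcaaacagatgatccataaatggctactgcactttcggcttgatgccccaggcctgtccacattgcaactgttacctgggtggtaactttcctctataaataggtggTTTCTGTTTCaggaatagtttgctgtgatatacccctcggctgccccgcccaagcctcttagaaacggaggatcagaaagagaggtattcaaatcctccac

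Of all 32851 promoter windows of this length, 0.563% hold TGACGTGG, 0.113% hold the spaced stress response element and 2.98% hold the interferon response core. Tnfsf13b also holds this core, 16 to 7 bases before the start of 1 of its 2 windows, in the narrower form to which both PRDM1 and IRF factors are known to bind (0.207% of windows, each of which also counts for the core). The octamer ATGCAAAT, the site of the Oct factors with which the Pou2af1 protein acts (1.6% of windows), was in no window of these genes. A match describes letters and is not a measured binding site.

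Mzb1 encodes a chaperone of the endoplasmic reticulum that aids antibody assembly in B-1, marginal zone and plasma cells. It lies on mm10 chromosome 18, 35647266 to 35649367, minus strand. Mzb1 had 68, 80 and 27 counts in the IL-33 KO libraries against 1, 5 and 10 in the WT libraries. All IL-33 KO libraries were above all WT libraries, with IL-33 KO 3 the lowest of its genotype and WT 3 the highest. In CPM this was 2.52 ± 1.08 against 0.221 ± 0.172 (SD, n = 3), a log2 fold change of 3.42 ± 0.60 (SE; adjusted p 0.194 in edgeR). The ratio of summed counts, scaled for depth, was 10.9 with a 95% exact interval, for counting error alone, from 6.55 to 19.6. Mzb1 passed in DESeq2 (adjusted p 4.59e-05) and in edgeR without a filter (0.0416), in a range up to 0.730 over the alternatives, and its log2 fold change was 4.13 without WT 3.

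Pou2af1 encodes OBF-1, the lymphoid coactivator of octamer-binding factors (mm10 chromosome 9, 51213690 to 51240079, plus strand). It had 64, 79 and 29 counts in the IL-33 KO libraries against 14, 9 and 16 in the WT libraries. IL-33 KO 1 and 2 were again the highest libraries, and IL-33 KO 3 lay between them and WT. The means were 2.48 ± 0.983 and 0.576 ± 0.163 CPM (SD, n = 3), a log2 fold change of 2.10 ± 0.42 (SE; adjusted p 0.276 in edgeR). The DESeq2 adjusted p was 0.00405, the lowest of a range up to 0.933 over the alternatives.

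Tnfrsf17, the gene of the survival receptor BCMA, marks late plasmablasts and plasma cells (mm10 chromosome 16, 11313812 to 11320074, plus strand). Its counts were 5, 14 and 15 in the IL-33 KO libraries against 0, 0 and 4 in the WT libraries. A count of 0 allows up to 0.151 CPM in WT 1 and 0.131 in WT 2, while IL-33 KO 1 stood at 0.211 CPM and WT 3 at 0.158, so the genotypes did not overlap but came close. All 4 WT counts came from WT 3. With 34 counts against 4, the depth-scaled ratio was 8.50, with an exact interval of 3.03 to 33.0 for counting error. Tnfrsf17 was too low for the filter, and without a filter its adjusted p in edgeR was 0.357 (log2 fold change 3.03 ± 0.99, SE). Unlike Mzb1 and Pou2af1, it was highest in IL-33 KO 3.

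Derl3 encodes a derlin that helps to export misfolded proteins from the endoplasmic reticulum and is strong in secretory cells (mm10 chromosome 10, 75893398 to 75895941, plus strand). It had 25, 23 and 14 counts in the IL-33 KO libraries against 27, 13 and 23 in the WT libraries. The genotypes overlapped, at 0.900 ± 0.198 and 0.945 ± 0.398 CPM (SD, n = 3), and the log2 fold change was -0.05 ± 0.41 (SE; adjusted p 0.973 in edgeR). Its sign turned with total-count scaling (0.03) and without WT 1 (0.29).

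Xbp1 and Prdm1 stood at another order of abundance. Xbp1 (mm10 chromosome 11, 5520659 to 5525893, plus strand) was at 176, 192 and 179 CPM in the IL-33 KO libraries and at 208, 249 and 208 in the WT libraries. All IL-33 KO libraries lay below all WT libraries, by a small margin, with a log2 fold change of -0.28 ± 0.13 (SE; adjusted p 0.564 in edgeR). Prdm1 (mm10 chromosome 10, 44437177 to 44528501, minus strand) was at 61.1, 74.1 and 63.0 CPM in the IL-33 KO libraries and at 85.5, 59.9 and 53.5 in the WT libraries. The genotypes overlapped, and the log2 fold change was -0.0036 ± 0.19 (SE; adjusted p 0.997 in edgeR), turning to 0.09 with total-count scaling and 0.22 without WT 1. As background, Prdm1 also acts in sebaceous gland and terminally differentiating keratinocytes, and Xbp1 is made in many secretory and stressed cells.

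**Figure D1:**
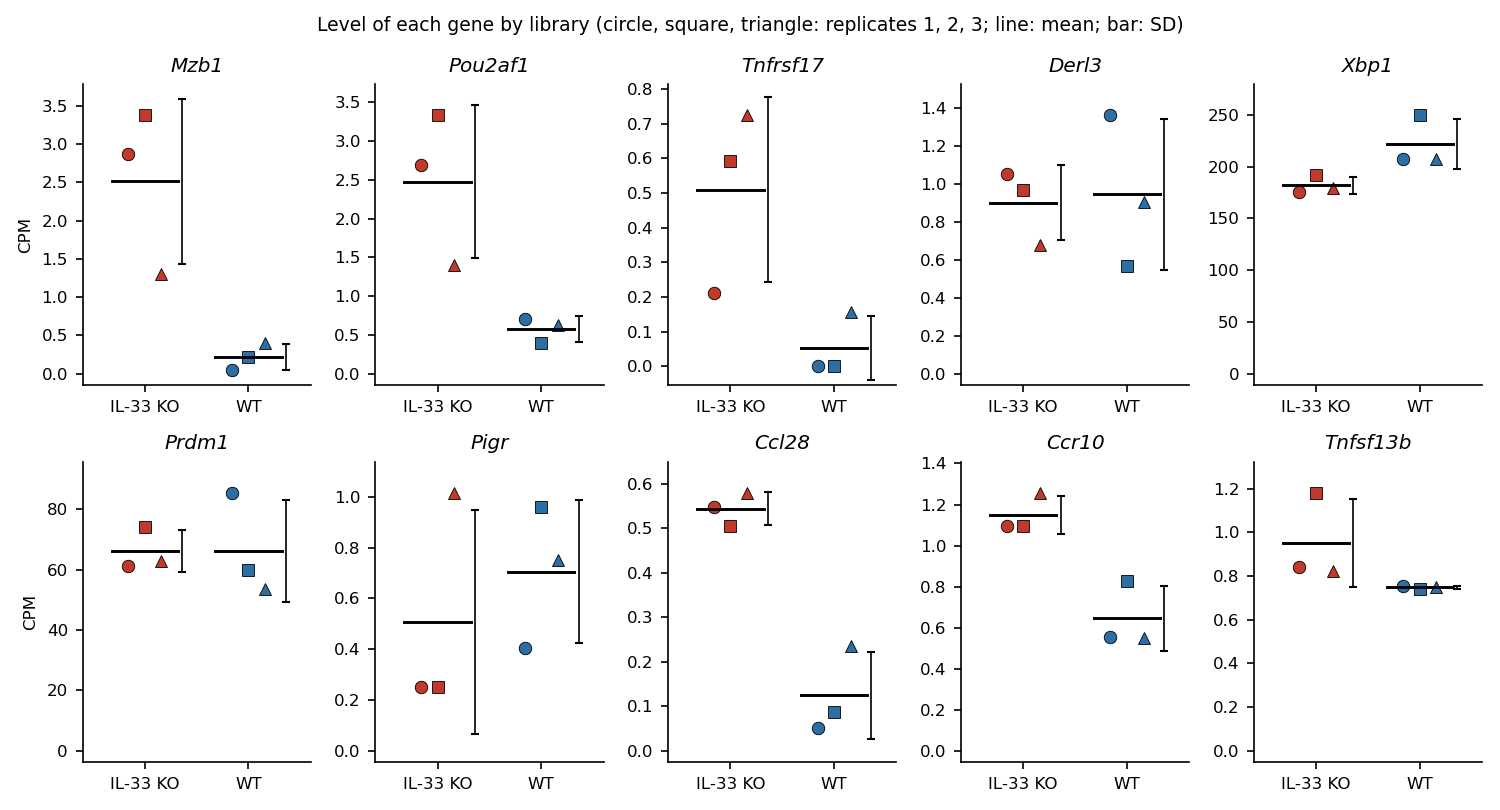
CPM (TMM-scaled, linear axes) of the 10 genes in each library, IL-33 KO in red and WT in blue, with replicates 1, 2 and 3 as circle, square and triangle, the mean as a line and the SD as a bar. Mzb1, Pou2af1, Tnfrsf17, Ccl28, Ccr10 and Tnfsf13b lie higher in all 3 IL-33 KO libraries, Xbp1 lies lower, and Derl3, Prdm1 and Pigr overlap.

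On the scale of the deposited FPKM, which divides by gene length and allows levels of different genes to be set side by side, Xbp1 was the highest of the 10 genes at 87.9 ± 2.63 in IL-33 KO against 101 ± 9.72 (SD, n = 3). Prdm1 followed at 12.8 ± 1.07 and 12.1 ± 2.57. Mzb1 came after them in IL-33 KO, at 2.86 ± 1.23 FPKM, and at 0.245 ± 0.203 in WT. In IL-33 KO, Tnfsf13b (1.05 ± 0.199 FPKM), Pou2af1 (0.994 ± 0.392), Derl3 (mean 0.695, range 0.512 to 0.847), Ccr10 (mean 0.685, range 0.636 to 0.736) and Tnfrsf17 (0.634 ± 0.321) followed in an order in which neighbours did not differ beyond their SD. Ccl28 (0.150 ± 0.0124 FPKM) and Pigr (0.134 ± 0.115) were the lowest in IL-33 KO. In WT, Tnfsf13b (0.783 ± 0.0516) and Derl3 (0.686 ± 0.275) were above Mzb1, while Ccl28 (0.0336 ± 0.0287) and Tnfrsf17 (0.0675 ± 0.117, listed at 0 in WT 1 and 2) were low and did not differ beyond their SD. The plot of level against difference shows that the genes with a large log2 fold change were those with a low level, apart from Igj.

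**Figure D2:**
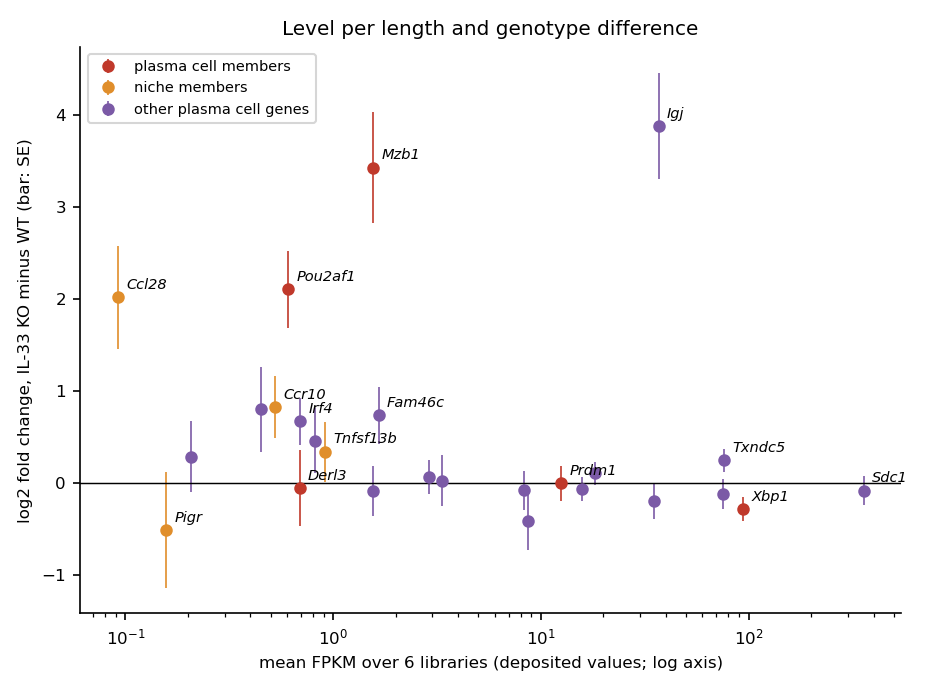
Mean of the deposited FPKM over the 6 libraries (log axis) against the log2 fold change of IL-33 KO minus WT in edgeR with its SE as a bar, for the tested genes of the plasma cell program, the niche and the other plasma cell list. Mzb1 (3.42) and Pou2af1 (2.10) lie at low FPKM, Igj (3.88) lies high on both axes, and the abundant genes Xbp1, Prdm1 and Sdc1 lie near 0.

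Ccl28, the mucosal chemokine that binds CCR10, had 13, 12 and 12 counts in the IL-33 KO libraries against 1, 2 and 6 in the WT libraries (mm10 chromosome 13, 119623819 to 119654354, plus strand). The IL-33 KO libraries were nearly equal and all above WT. In CPM the means were 0.545 ± 0.0372 and 0.125 ± 0.0986 (SD, n = 3), a log2 fold change of 2.02 ± 0.56 (SE; adjusted p 0.434 in edgeR and 0.365 in DESeq2). The log2 fold change was 2.86 without WT 3, and the depth-scaled ratio of 37 to 9 counts was 4.11, with an exact interval of 1.95 to 9.69 for counting error.

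Ccr10, its receptor, had 26, 26 and 26 counts in the IL-33 KO libraries against 11, 19 and 14 in the WT libraries (mm10 chromosome 11, 101172997 to 101175443, minus strand). Ccr10 stood at 1.15 ± 0.0930 CPM (SD, n = 3) against 0.554, 0.830 and 0.552 in the WT libraries, without overlap, with a log2 fold change of 0.83 ± 0.33 (SE; adjusted p 0.537 in edgeR). In skin this receptor is also carried by T cells. Ccr10 overlaps Cntnap1 on the opposite strand, which had 529 counts in all IL-33 KO libraries against 460 in WT, and since no source used here tells whether strand was used in counting, reads of the pair cannot be told apart.

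Pigr, the transporter of polymeric IgA, had 6, 6 and 21 counts in the IL-33 KO libraries against 8, 22 and 19 in the WT libraries (mm10 chromosome 1, 130826684 to 130852249, plus strand). The genotypes overlapped at 0.507 ± 0.440 and 0.704 ± 0.282 CPM (SD, n = 3), with a log2 fold change of -0.51 ± 0.63 (SE; adjusted p 0.811 in edgeR). In CPM, IL-33 KO 3 was the highest library of all, and without it the log2 fold change was -1.47.

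Tnfsf13b, the gene of the survival ligand BAFF, had 20, 28 and 17 counts in the IL-33 KO libraries against 15, 17 and 19 in the WT libraries (mm10 chromosome 8, 10006843 to 10035441, plus strand). In CPM it was 0.843, 1.18 and 0.822 in the IL-33 KO libraries against 0.756, 0.742 and 0.749 in WT, so the genotypes did not overlap but 2 of the IL-33 KO libraries lay just above WT. The log2 fold change was 0.34 ± 0.33 (SE; adjusted p 0.753 in edgeR).

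Beyond the 10 genes, 16 lists of further plasma cell, niche and cell type genes were read in the same test. These lists too were chosen with earlier results of these data known. No gene of these lists passed an adjusted p of 0.05 in edgeR with the filter. Some passed in DESeq2, among them antibody genes (given below) and Krt72 of the hair follicle list (adjusted p 1.23e-11). Over all 15720 tested genes the median log2 fold change was -0.01, with 7544 higher and 8176 lower. Of 17 other plasma cell genes tested, 10 were higher and 7 lower, with a median of 0.07. At an unadjusted p under 0.05 in edgeR 3 were higher, against 4.87% of all tested genes. Without overlap 4 were higher, against 7.46% of all tested genes. The joining chain gene Igj stood at 112, 132 and 36.9 CPM in the IL-33 KO libraries and at 3.02, 5.55 and 10.4 in the WT libraries, a log2 fold change of 3.88 ± 0.58 (SE; adjusted p 0.182 in edgeR). Its order of libraries was that of Mzb1. The plasma cell transcription factor gene Irf4 was at 3.97 ± 0.984 against 2.50 ± 0.309 CPM, and Fam46c, a poly(A) polymerase gene that is active in plasma cells, at 11.5 ± 2.53 against 6.94 ± 2.64 (SD, n = 3), both without overlap. The receptor-like gene Fcrl5 had 15 counts in all IL-33 KO libraries against 2 in WT, a depth-scaled ratio of 7.50 with an exact interval of 1.74 to 67.6 for counting error. Sdc1 (CD138), the usual surface marker of plasma cells and abundant in epidermis, was at 1102 ± 63.6 CPM against 1165 ± 140, with overlap. Of 7 tested antibody constant regions all were higher (median 2.47), among them Igha at 256, 212 and 109 CPM in the IL-33 KO libraries against 11.2, 21.6 and 22.9 in WT (adjusted p 0.0567 in edgeR) and Igkc with a log2 fold change of 3.52 ± 0.37 (adjusted p 0.0513 in edgeR). Iglc2 (2.93), Ighg1 (2.47), Ighg2c (2.30), Ighg2b (2.09) and Ighm (0.45) followed on the log2 scale, and counts may be split between such similar genes. Ighg1, Ighg2c and Ighm overlapped between the genotypes, and Iglc2 reached the count minimum in the IL-33 KO libraries alone. In DESeq2 the adjusted p was 3.27e-22 for Igkc, 1.17e-19 for Igha, 2.93e-05 for Igj, 0.00303 for Iglc2 and 0.0261 for Ighg2b. Ighg1, Ighg2c and Ighm did not pass there. Igkc passed in 10, Igha in 7 and Igj in 2 of 18 alternatives. Their adjusted p ranged up to 0.384 for Igkc and Igha and 0.728 for Igj. Without IL-33 KO 1 the log2 fold change was 1.58 for Ighg1, 1.20 for Ighg2c and 1.47 for Ighg2b. Without WT 3 it was 3.24 for Ighg1 and 3.22 for Ighg2c, and without WT 2 it was 2.74 for Ighg2b.

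Markers of B cells as such were split. Their summed level was 78.4 to 81.7 CPM in the IL-33 KO libraries and 54.9 to 76.6 in WT. Most of it came from Bcl6, Ebf1 and Bach2, which are also made by other cells. Bcl6 and Ebf1 overlapped between the genotypes. Of 10 tested, 6 were higher and 4 lower (Cd22, Blk, Cxcr5 and Faim3, all with overlap). Their median log2 fold change was 0.28. At an unadjusted p under 0.05 there were 3 higher (Bach2, Cd79a and Spib), against 4.87% of all tested genes, but Cd79a and Spib reached the count minimum in the IL-33 KO libraries alone, so that count is a description. Bach2, a repressor that holds cells in the B cell stage, was at 9.29 ± 1.80 against 4.23 ± 1.85 CPM, and Cd79a, a signalling chain of the B cell receptor, at 0.613 ± 0.0944 against 0.227 ± 0.111 (SD, n = 3). Pax5, which defines the B cell lineage, had 0 counts in WT 1, WT 2 and IL-33 KO 1 and at most 5 elsewhere, and Ms4a1 (CD20) had 1 to 11 counts. At this depth no difference in Pax5 or Ms4a1 was detectable.

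**Figure D3:**
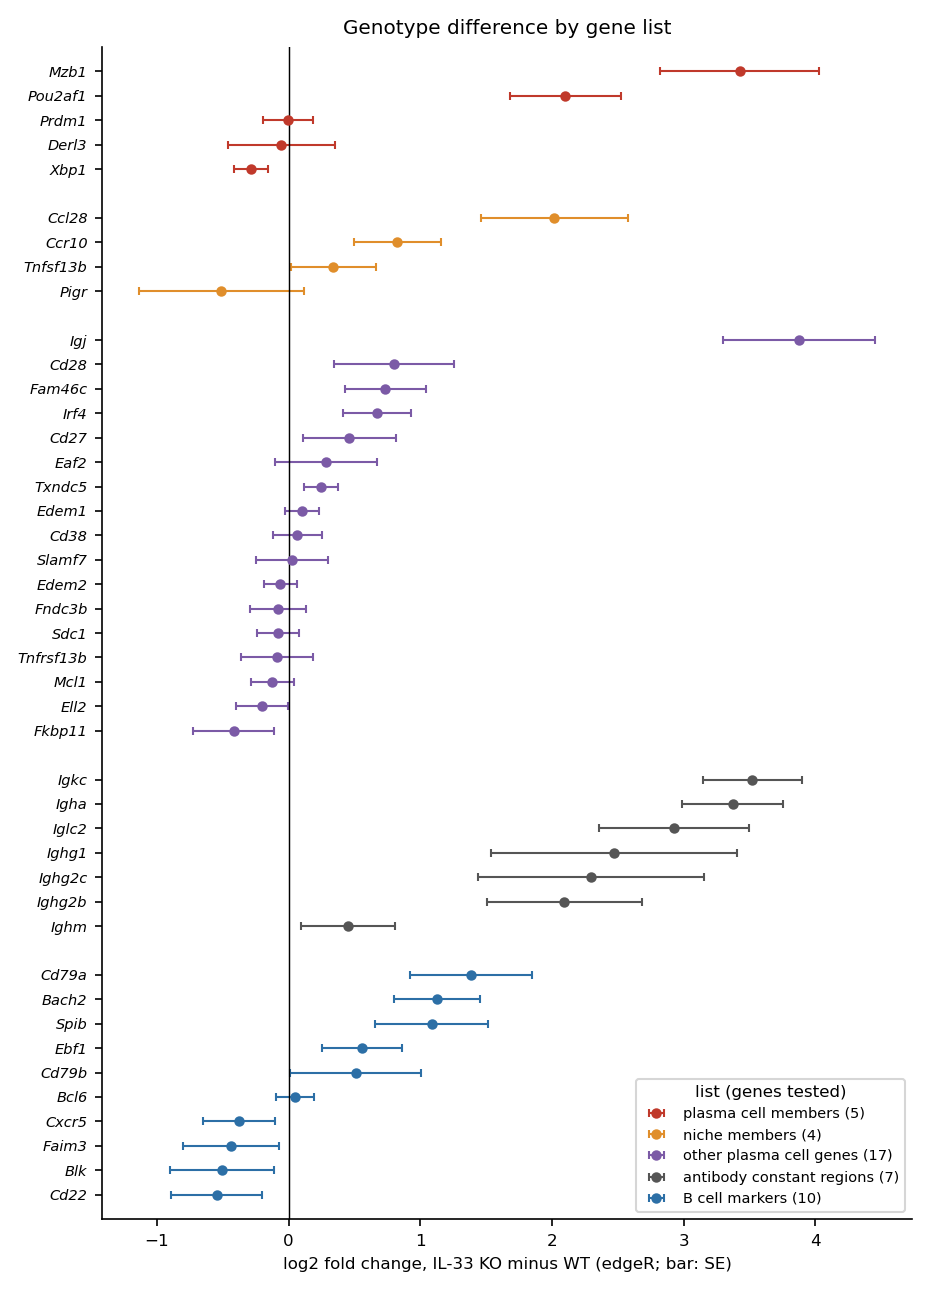
Log2 fold change of IL-33 KO minus WT in edgeR with its SE as a bar, for the tested genes of 5 lists. Mzb1, Pou2af1, Igj and the antibody constant regions lie right of 0, while Prdm1, Derl3, Xbp1 and most other plasma cell genes lie near it, and B cell markers fall on both sides.

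Among 13 tested genes of the BAFF and APRIL system and of cytokines that sustain plasma cells, 2 were higher and 11 lower (median log2 fold change -0.21). Tnfrsf13c, the BAFF receptor of B cells, had 55, 26 and 24 counts in the IL-33 KO libraries against 12, 0 and 4 in the WT libraries, a log2 fold change of 2.63 ± 0.82 (SE; adjusted p 0.465 in edgeR) that was 4.13 without WT 1 and 2.04 without WT 2. Tnfrsf13c reached the count minimum in 3 IL-33 KO libraries and 1 WT library, so it entered the test mainly through IL-33 KO. Tnfsf13 (APRIL) had 17, 6 and 7 counts against 13, 18 and 27, with overlap. Another receptor gene of this family, Tnfrsf13b (TACI), was at 3.86 ± 0.948 against 4.10 ± 0.960 CPM. Of 16 tested homing genes 5 were higher and 11 lower (median -0.07). Ccl27a, the skin ligand of CCR10, was at 16.2 ± 7.58 CPM in the IL-33 KO libraries against 29.6 ± 16.5 in WT, with overlap, and Ccl20, a ligand of CCR6 on lymphocytes, was at 1.17 ± 0.146 and 3.00 ± 1.72, lower in all 3 IL-33 KO libraries. All 7 tested IgA transport and Fc receptor genes had negative log2 fold changes (median -0.23), with Fcamr, a receptor of IgA and IgM, at 2.60 ± 0.512 against 3.46 ± 0.480 CPM, with overlap. Fcgr2b and Fcgr3 were lower without overlap, 2 of the 7, against 6.47% of all tested genes. Of 25 tested XBP1 and endoplasmic reticulum stress targets 20 were lower and 5 higher (median -0.13), within a span of -0.32 to 0.18 on the log2 scale. Herpud1, of the degradation machinery for misfolded proteins, was at 44.9 ± 2.72 against 55.0 ± 6.85 CPM, and Spcs1, a signal peptidase subunit, at 85.7 ± 8.62 against 105.8 ± 9.22, both without overlap. Of the 25 targets 3 were lower without overlap, against 6.47% of all tested genes. At an unadjusted p under 0.05 in edgeR there were 2, both lower, against 4.15% of all tested genes. A link to the Xbp1 values was not tested.

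RNA of other tissues stood at different levels in the same libraries, and its part in the differences above was not tested. All 20 hair follicle genes were higher in IL-33 KO (median log2 fold change 1.82), with a summed level of 11656 to 24174 CPM against 3091 to 7001. All 10 tested skeletal muscle genes were higher (summed level 17.6 to 358 against 13.7 to 17.2 CPM), as were all 12 adipocyte genes (870 to 1276 against 244 to 963). In IL-33 KO 1, 2 and 3 the muscle genes summed to 173, 17.6 and 358 CPM and the hair follicle genes to 24174, 12513 and 11656 CPM. Exocrine and mammary genes, included because glands make Ccl28 and Pigr, were higher in 7 of 12 and lower in 5 (summed level 296 to 340 against 311 to 398 CPM), and the casein gene Csn2 had 0 counts in every library. Epcam and Cldn4, which overlapped between the genotypes, made up most of that sum. The members with the smallest p were all higher in IL-33 KO. The simple epithelial keratin Krt18 (4.52 ± 0.695 against 2.26 ± 0.713 CPM; SD, n = 3) and the alveolar transcription factor gene Elf5 (25.5 ± 8.12 against 16.1 ± 2.18) did not overlap. The milk protein genes Ltf (1.14 ± 0.785 against 0.420 ± 0.173) and Csn3 (1.15 ± 0.566 against 0.461 ± 0.403) did. Of the 5 lower members, Aqp5 (9.75 ± 5.37 against 17.2 ± 10.4 CPM) and Krt7 (2.51 ± 1.04 against 3.66 ± 1.23) had the most negative log2 fold changes, both with overlap. Krt18, Elf5 and Ltf, of the 12, had an unadjusted p under 0.05 in edgeR, against 4.87% of all tested genes as higher. Ltf reached the count minimum in 3 IL-33 KO libraries and 1 WT library. It thus entered the test mainly through the genotype in which it was high, and that count is a description. The part of gland RNA in the Ccl28 values was not tested. Sebaceous gland genes were split 5 to 5 (678 to 1108 against 475 to 1295 CPM). Lymph node stroma genes were higher in 3 of 4, at 70.1 to 83.8 against 69.2 to 91.4 CPM. T cell markers were higher in 6 of 11 (65.8 to 78.8 against 71.4 to 77.5 CPM), and the part of T cells in the Ccr10 values was not tested. Keratinocyte genes were lower in 11 of 12 (30987 to 52012 against 42860 to 71068 CPM) and leukocyte and myeloid genes in 11 of 12. The leukocyte and myeloid sums did not overlap (1831 to 1900 against 2042 to 4151 CPM), with WT 1 far above WT 2 (2218) and WT 3 (2042). No single gene of that list was without overlap, and its mean log2 levels overlapped between the genotypes. The general leukocyte gene Ptprc (CD45) was at 55.0 ± 4.70 CPM in the IL-33 KO libraries against 55.6 ± 16.9 in WT.

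**Figure D4:**
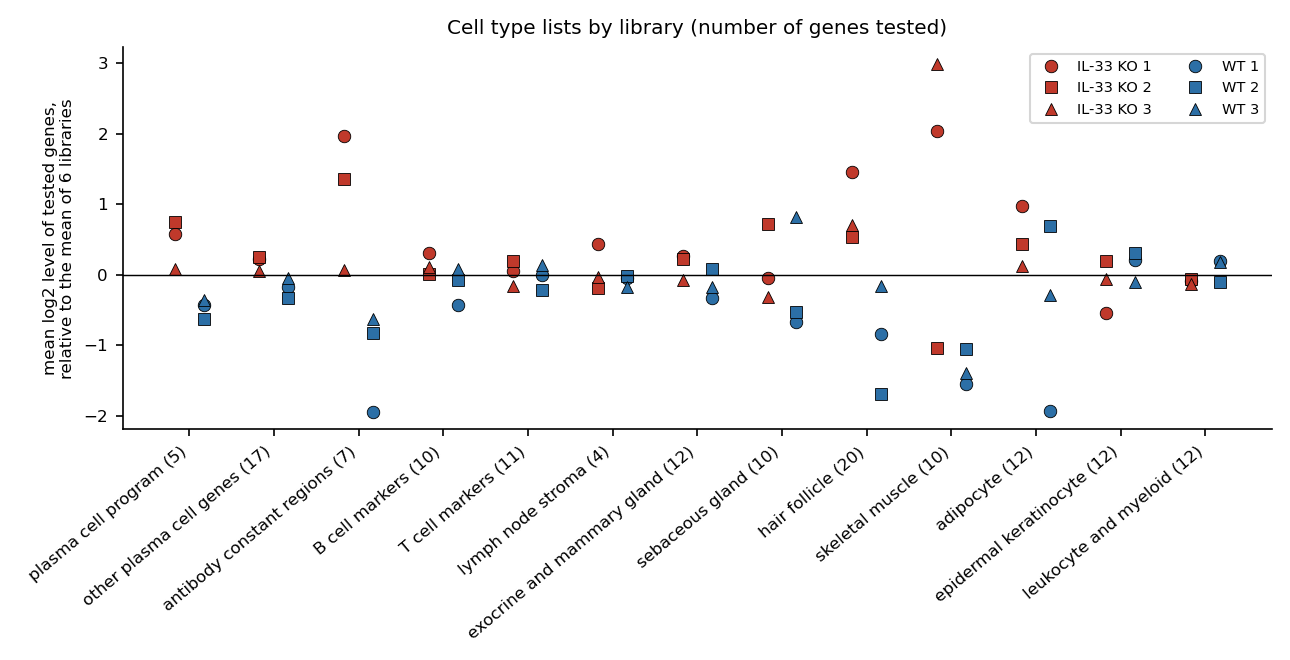
Mean log2 level of the tested genes of each list in each library, relative to the mean of the 6 libraries, IL-33 KO in red and WT in blue, with replicates 1, 2 and 3 as circle, square and triangle. Plasma cell program and antibody lists lie higher in all 3 IL-33 KO libraries, as does the hair follicle list, whereas the muscle list is high in IL-33 KO 1 and 3 only and the T cell and leukocyte lists overlap. In the plasma cell program list 2 of the 5 tested genes, Mzb1 and Pou2af1, were higher and 3 lower (median log2 fold change -0.0036). Its summed level overlapped between the genotypes (244 to 274 against 263 to 311 CPM).

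Among tested genes outside the 10 and outside antibody segments, Igj had the pattern most like Mzb1 over the 6 libraries (Pearson r = 0.996 in log2 CPM, as a description). Klhdc8a, Fbxl18, Vat1l and Fbxw8 came next, with r from 0.988 to 0.992. Their differences were smaller, as Fbxl18 was at 19.3 ± 0.854 against 16.4 ± 1.07 CPM (SD, n = 3) and Vat1l at 1.57 ± 0.391 against 0.512 ± 0.204. With 6 points that share their libraries and fall into 2 genotypes, such values rank genes and carry no test.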

How the data were processed

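RNA of 6 libraries was compared, 3 per genotype, as titled in the labels. The authors deposited whole-number read counts per gene and FPKM values. The tools STAR and RSEM and the build mm10 are named in the submitters' processing notes, and no version or strand setting was found in the sources used. The deposited FPKM equal count per listed length and column total to a relative difference of 2.78e-07. Tests on counts used edgeR 4.0.16 under R 4.3.3 (filterByExpr, minimum count 10, TMM, glmQLFTest, two-sided, Benjamini-Hochberg over 15720 genes, threshold 0.05), with SE derived from the F statistic, and tested on simulated data. Other settings used DESeq2 1.42.0 and limma 3.58.1. Depth was 20459574 to 24359612 counts per library. No pair of libraries of a genotype agreed within sampling noise (chi-square per degree of freedom at least 33.7). Intervals are exact binomial, and they and the floor of 3 counts cover counting error only, since reads are not independent molecules. The 10 genes, the 16 further lists and the motifs were chosen with earlier results of these data known. Named besides the 10 genes are list members with the smallest p (up to 4 per list), every tested antibody constant region and the 5 genes most like Mzb1. Other genes named (Sdc1, Fcrl5, Pax5, Ms4a1, Tnfrsf13b, Csn2, Ptprc, Krt5, Epcam, Cldn4, Aqp5, Krt7, Bcl6, Cd22, Blk, Cxcr5 and Faim3) were chosen after their values were seen. Promoter windows are from RefSeq (GRCm38.p6). A gene of the B cell list is not reported here and was left out of its counts.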

Additional observations from a re-analysis of the deposited data

How the results depend on the processing

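Against 3 genes that passed and 0 of the 10 genes described here, 5 passed with upper quartile scaling, 5 with total counts, 5 with hair follicle, muscle and adipocyte genes removed, 33 without a filter, 11 in limma-voom, 233 in DESeq2, 15 with log2(FPKM + 1), 11 with log2(FPKM + 0.1), 6 with log2(FPKM + 1) unfiltered, and 2 to 24 when each library was left out (10 with IL-33 KO 2 out, 5 with IL-33 KO 3 out and 24 with WT 3 out). Of the 10 genes 1 passed without a filter (Mzb1) and 2 in DESeq2 (Mzb1 and Pou2af1), and 0 in every other setting, each library left out included. In the FPKM settings with a minimum of 1 FPKM in 3 libraries, 3 of the 10 could be tested. The causes were not tested. The sign turned for Derl3 with total counts (0.030), limma-voom (0.021), unfiltered log2(FPKM + 1) (0.016) and over libraries left out (-0.32 to 0.29), and for Prdm1 with upper quartile (0.019), total counts (0.086), limma-voom (0.022), log2(FPKM + 1) (0.093, also unfiltered), log2(FPKM + 0.1) (0.10), the replicate block (0.021) and over libraries left out (-0.14 to 0.22). It also turned for the chemokine gene Ccl19 without IL-33 KO 1 (range over libraries left out -0.17 to 0.39) and for the sebaceous gland gene Awat1 without WT 3 (-0.62 to 0.36). Mzb1, Pou2af1, Ccl28, Ccr10, Tnfsf13b, Xbp1 and Pigr kept their sign in every setting run. With the replicate number as a block 2 genes passed and 0 of the 10. Same-numbered libraries deviated from their genotype means in opposite ways (r = -0.26, -0.12 and -0.38). Deviations within a genotype depend on each other, so these values cannot tell whether same-numbered libraries were handled together. The count of 6 genes higher and 1 lower without overlap, Tnfrsf17 included, was the same under RLE, upper quartile and total-count scaling and, a setting chosen after seeing the data, in the deposited FPKM. At 0 to 80 counts per library, depth limits Mzb1, Pou2af1, Tnfrsf17, Derl3, Pigr, Ccl28, Ccr10 and Tnfsf13b.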

Other observations

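Igha took 85.2%, 88.2% and 87.0% of the counts of 7 heavy chain constant region genes in the IL-33 KO libraries 1, 2 and 3, against 64.2%, 53.7% and 56.4% in WT 1, 2 and 3. Each value rests on 346 to 7131 counts, with 95% exact binomial intervals of 84.3 to 86.0% in IL-33 KO 1 and 58.9 to 69.2% in WT 1 that cover counting error only. The mean was 86.8% ± 1.499 against 58.1% ± 5.43 (SD, n = 3), higher in 3 of 3 IL-33 KO libraries, with a two-sided exact permutation p of 0.1, the smallest that 3 against 3 allows. Ighm, the IgM constant region that B cells also make, was at 17.2, 16.4 and 12.6 CPM in the IL-33 KO libraries against 5.19, 15.4 and 13.1 in WT, with overlap. Igha counts per count of Igj were 2.29, 1.61 and 2.96 in the IL-33 KO libraries against 3.70, 3.89 and 2.21 in WT, and these ratios overlapped.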
